A study of Mus musculus with 53 samples.

Results

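The genes described here are the HSP70, HSP90, J-domain (DNAJ) and chaperonin genes of the adult mouse heart. They were chosen by symbol alone: Hspa with a number, Hsp90, Hspd1, Hspe1, Hsph1, Dnaja, Dnajb, Dnajc, Cct2 to Cct8 and Tcp1, without 9 rows whose symbol ends in "-ps". This gave 74 of the 34306 genes in the deposited table. Of these, 14 belong to the HSP70 and HSP110 family, 3 to HSP90 and 2 to the mitochondrial chaperonin. A further 10 encode the TRiC chaperonin or close relatives, and the J-domain genes comprise 4 of class A, 13 of class B and 28 of class C.

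Chaperones bind unfolded protein and use ATP to help it fold. HSP70 proteins are loaded onto their clients by J-domain proteins, which stimulate the HSP70 ATPase, and are reset by nucleotide exchange factors such as the HSP110 proteins. HSP90 acts later, on kinases, receptors and, in muscle, myosin. Chaperonins are barrel-shaped: TRiC folds actin and tubulin in the cytosol, and Hspd1 (HSP60) with its lid Hspe1 (HSP10) works in the mitochondrial matrix. Compartments have their own members, among them Hspa5 and Hsp90b1 in the endoplasmic reticulum and Hspa9, Dnaja3, Dnajc15 and Dnajc19 in mitochondria. Heat shock factor 1 switches on the inducible members, such as Hspa1a and Hspa1b, through repeats of GAA and its complement near the gene start.

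RNA was sequenced from ribosomes pulled down by translating ribosome affinity purification (TRAP) and from total cytoplasmic RNA (input) of hearts of adult mice. The ribosome tag is switched on by Cre recombinase, in all lineages in CAG mice and in endothelial cells in Tie2 mice, and the labels give a mixed 129/C57BL background for the first deposit of the series. The CAG groups were band TRAP (2 libraries), sham TRAP (2), band input (2), sham input (2), TRAP without surgery (1) and input without surgery (1). Tie2 TRAP and Tie2 input came from hearts without surgery, with 1 library each. Banding tied a ligature around the ascending aorta of male mice, a pressure load on the left ventricle, and sham surgery left the ligature out. The time after surgery, the age beyond "Adult" and the sex of the mice without surgery were not given in the sources used here. RNA was pooled before library preparation, and no source used here ties the 2 libraries of a group to different mice, so a p-value reflects only how far such libraries differ, possibly for technical reasons.

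The 12 libraries held between 26568988 and 94878619 reads, of which the 74 genes took 0.405% to 0.526%. Reads of mitochondrially encoded genes made up 13.7% to 15.9% of each CAG input library and 3.17% of Tie2 input, but at most 0.293% of any TRAP library, which changes the total that RPKM (reads per kilobase, scaled to the size of the library) rests on. Summed cardiomyocyte markers lay between 45715 and 66321 RPKM in every library except Tie2 TRAP, where they reached 3355 RPKM. Summed endothelial markers reached 12488 RPKM in Tie2 TRAP, 1374 RPKM in Tie2 input and 867 to 1703 RPKM in the CAG libraries. The hypertrophy marker Nppa had 194 and 571 RPKM in band TRAP against 182 and 167 RPKM in sham TRAP, and 261 and 459 RPKM in band input against 140 and 138 RPKM in sham input. In the 3 unoperated libraries other than Tie2 TRAP it had 2808 to 3973 RPKM. The 2 band TRAP libraries were less alike: their correlation over all tested genes was 0.982, against 0.995 to 0.997 in the other pairs of libraries. A correlation cannot tell which of the 2 departs.

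Of the 74 genes, 63 reached 1 RPKM in at least 2 libraries and entered the tests with 11654 genes in all. The other 11 were Cct6b, Cct8l1, Dnajb3, Dnajb7, Dnajb8, Dnajb13, Dnajc5b, Dnajc5g, Dnajc6, Dnajc22 and Hspa13. Dnajb8 had 0 reads in every library, and Hspa13, a divergent HSP70, passed 1 RPKM only in Tie2 TRAP, at 1.08. These 11 genes, several of them known from testis or brain, are described no further.

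The start regions of Hspa1a, Hspa1b and Hspa1l are shown first because these genes are called between banded and sham hearts further on. Hspa1a and Hspa1b encode near-identical proteins, and Hspa1l, known from germ cells, is their neighbour and runs away from Hspa1a on the opposite strand. The sequences are the 250 bases before each start from RefSeq (GRCm38.p6, a later build than that of the table), 5′ to 3′ on the strand of the gene. Capitals mark GAANNTTC, a core of the heat shock element that reads the same on both strands.
Hspa1a, chr17:34972157-34972406, minus strand: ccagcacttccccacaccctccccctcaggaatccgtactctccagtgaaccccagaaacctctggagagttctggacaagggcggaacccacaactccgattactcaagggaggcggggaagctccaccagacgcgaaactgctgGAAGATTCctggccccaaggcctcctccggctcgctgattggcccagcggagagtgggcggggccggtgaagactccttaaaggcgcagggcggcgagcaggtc
Hspa1b, chr17:34959239-34959488, minus strand: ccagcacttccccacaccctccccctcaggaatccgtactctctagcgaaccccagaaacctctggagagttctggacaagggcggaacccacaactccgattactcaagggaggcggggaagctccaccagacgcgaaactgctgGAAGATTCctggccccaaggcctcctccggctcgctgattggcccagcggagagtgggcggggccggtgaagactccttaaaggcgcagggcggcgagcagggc
Hspa1l, chr17:34972453-34972702, plus strand: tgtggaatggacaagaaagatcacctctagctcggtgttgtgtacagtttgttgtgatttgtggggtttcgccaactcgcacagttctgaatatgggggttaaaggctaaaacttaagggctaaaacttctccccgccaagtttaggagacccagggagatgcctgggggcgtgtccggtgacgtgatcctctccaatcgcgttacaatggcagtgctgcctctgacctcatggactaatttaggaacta

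The Hspa1a and Hspa1b regions differed at 3 of 250 bases, and both held the motif 104 bases before the start. No GAANNTTC was found in the 250 bases of the Hspa1l window. The Hspa1a window, with its motif, lies farther before the Hspa1l start and was not counted for Hspa1l. Among the 78 start regions that RefSeq lists for 60 of the 74 genes, 11 (14.1%) held GAANNTTC, against 6.69% of 32851 regions of the same length over all genes. These 11 regions belong to 10 genes (16.7% of the 60, against 7.73% of all genes). The site between Hspd1 and Hspe1 is counted for both. Hspd1 and Hspe1 share 1 start region and run in opposite directions from it. The motif lies there too, at chr1:55088053-55088082 on the strand of Hspe1 (GRCm38.p6), shown because the values of these partner genes are compared further on.
Hspd1 and Hspe1: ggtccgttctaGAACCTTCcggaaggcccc

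In the 5 CAG input libraries, the level of the 74 genes spanned from 0 to 537 RPKM. Hsp90ab1, the constitutive cytosolic HSP90, led with a mean of 537 ± 46.5 RPKM. Dnajc15, a J-domain protein of the mitochondrial inner membrane, followed with 343 ± 32.7 RPKM, and Hspe1 with 301 ± 69.5 RPKM (SD, n = 5 libraries each, over 3 groups). The ranges of Dnajc15 (313 to 381 RPKM) and Hspe1 (237 to 420 RPKM) overlapped.

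Next came the constitutive HSP70 Hspa8 at 103 ± 18.8 RPKM, mitochondrial Hspa9 at 81.6 ± 5.58 RPKM and Dnajc4 at 79.5 ± 5.74 RPKM. Cct5, a TRiC subunit, had 64.7 ± 3.36 RPKM, Dnajc8, a protein of the splicing machinery, had 59.6 ± 6.21 RPKM, and Hspa5 had 56.0 ± 6.84 RPKM. These 3 neighbours in the order overlapped in their ranges. In all, 10 of the 74 genes averaged 50 RPKM or more, 24 lay between 10 and 50, 27 between 1 and 10, and 13 below 1.

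Family members differed widely. Hsp90ab1 exceeded the inducible Hsp90aa1, at 12.5 ± 3.46 RPKM, in each of the 5 libraries. The 8 tested TRiC subunits, which assemble in equal numbers, spanned 14.4 RPKM for Cct6a to 64.7 RPKM for Cct5. Inducible Hspa1a stood at 0.00560 and 0.00597 of Hspa8 in the 2 sham input libraries, per length.

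**Figure D1:**
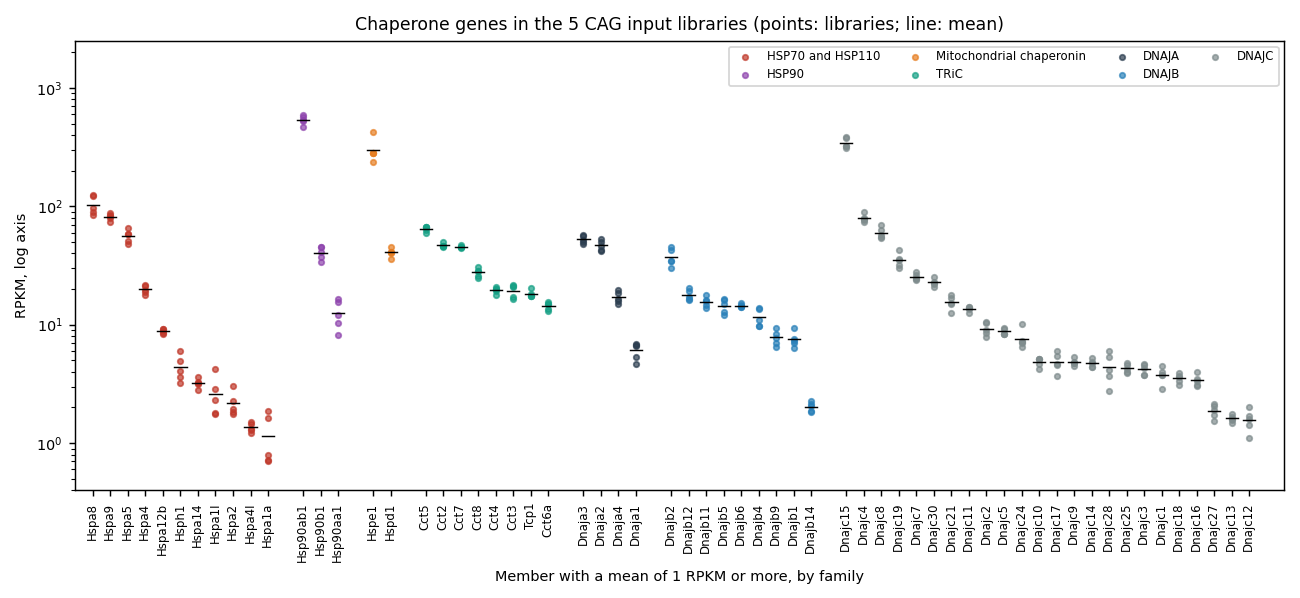
RPKM (log axis) of each gene with a mean of 1 RPKM or more in the 5 CAG input libraries, grouped by family; each point is a library and each line a mean. Hsp90ab1, Dnajc15 and Hspe1 lie above 200 RPKM in every library, while Hspa1a lies between 0.70 and 1.85 RPKM.

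TRAP was set against input to ask how much of each RNA is recovered with ribosomes. The genes higher in TRAP after both operations were Dnajc19, Dnajc15, Dnajc30, Dnaja3, Dnaja4, Dnajb2, Dnajc24, Hspe1 and Hspa14. Lower after both were Hsp90ab1, Hspa1a, Hspa2, Hspa4, Hspa12b, Hsph1, Cct7, Dnajb1, Dnajb6, Dnajb14, Dnajc5, Dnajc7, Dnajc13, Dnajc18 and Dnajc21. Mitochondrial Hspa9, at -0.56 ± 0.24 after banding and -0.47 ± 0.24 after sham surgery (log2 fold change and SE), did not pass the test, nor did Hspd1. All groups share 1 spread per gene, so an SE after sham surgery also holds the gap between the band TRAP libraries. For Hspa9, library 2 minus library 1 was -0.83 (log2) in band TRAP, 0.09 in sham TRAP and -0.04 in sham input. Its missing call in sham hearts thus rests in part on the band TRAP libraries. In banded hearts, 11 of the 63 genes were higher in TRAP (17.5%, against 16.6% of all genes tested) and 17 were lower (27.0%, against 26%). In sham hearts, 9 were higher (14.3%, against 15.1% of all genes) and 18 were lower (28.6%, against 24.5%). The shares are thus near those of all genes. Among the genes counted as lower, Dnajb14 and Dnajc13 reached 1 RPKM in 6 input libraries and 1 TRAP library, so it was mainly through input that they entered the tests. Hspa1a, also counted as lower, reached 1 RPKM in 2 input libraries and 1 TRAP library, all of banded hearts. In sham hearts it lay below 1 RPKM in both fractions. The median log2 fold change of the 63 genes was -0.24 after banding and -0.23 after sham surgery, against -0.10 and -0.09 over all genes. Calls are limma tests on log2(RPKM + 1) with Benjamini-Hochberg adjusted p under 0.05 over all 11654 genes.

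Dnajc19, a J-domain protein of the mitochondrial import motor whose loss in humans causes a cardiomyopathy, had 104 and 94.1 RPKM in band TRAP against 31.8 and 36.0 RPKM in band input. In sham hearts it had 68.2 and 66.6 RPKM in TRAP against 30.2 and 34.9 RPKM in input. All 4 TRAP libraries lay above all 4 input libraries. The log2 fold change was 1.52 ± 0.11 (SE) after banding and 1.03 ± 0.11 after sham surgery, with limma adjusted p of 0.000228 and 0.000969.

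Dnajc15 had 736 and 517 RPKM in band TRAP against 313 and 324 RPKM in band input. Sham hearts had 536 and 563 RPKM in TRAP against 320 and 381 RPKM in input. Fractions did not overlap in either kind of heart, although the band TRAP libraries lay far apart. Its log2 fold change was 0.95 ± 0.17 after banding (limma adjusted p = 0.00472) and 0.65 ± 0.17 after sham surgery (0.0209). The call after sham surgery was lost with no filter on low values, after quantile normalization and with a trend on transcript length removed.

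The partners of the mitochondrial chaperonin were called differently. Hspe1 had 454 and 413 RPKM in band TRAP against 237 and 281 RPKM in band input, and 393 and 416 RPKM in sham TRAP against 284 and 284 RPKM in sham input. Its TRAP libraries were the higher ones in both kinds of heart, by 0.74 ± 0.10 after banding and 0.51 ± 0.10 after sham surgery on the log2 scale (limma adjusted p = 0.00207 and 0.00931). The call of Hspe1 after sham surgery was lost after quantile normalization and with a trend on transcript length removed. Its call after banding stood under both. Hspd1 had 39.2 and 23.9 RPKM in band TRAP against 40.6 and 36.1 RPKM in band input, and 32.7 and 35.3 RPKM in sham TRAP against 40.9 and 45.2 RPKM in sham input. Its log2 differences were -0.31 ± 0.21 and -0.33 ± 0.21 and did not pass the test (limma adjusted p = 0.262 and 0.243). The sham fractions of Hspd1 did not overlap, but the SE is shared by all groups. Library 2 minus library 1 was -0.69 (log2) in band TRAP, 0.10 in sham TRAP and 0.14 in sham input. The ratio of Hspe1 to Hspd1, per length, was 11.6 and 17.3 in band TRAP against 5.84 and 7.79 in band input, and 12.01 and 11.8 in sham TRAP against 6.94 and 6.28 in sham input.

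Other genes higher in TRAP after both operations were Dnajc30, a mitochondrial protein tied to the respiratory chain, with 0.64 ± 0.11 after banding and 0.65 ± 0.11 after sham surgery, and Dnajb2, which binds ubiquitinated clients, with 0.76 ± 0.11 and 0.41 ± 0.11. Dnaja3 had 0.46 ± 0.08 and 0.38 ± 0.08, cytosolic Dnaja4 0.43 ± 0.09 and 0.35 ± 0.09, Dnajc24, a diphthamide synthesis protein, 0.50 ± 0.10 and 0.41 ± 0.10, and ribosome-associated Hspa14 0.44 ± 0.09 and 0.32 ± 0.09, all on the log2 scale with banding first. All 9 genes called higher in sham hearts were among the 11 called in banded hearts, which also held Dnajc12 (0.63 ± 0.12) and Dnajb9, an endoplasmic reticulum protein (0.62 ± 0.17).

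Dnajb1, the stress-inducible class B protein that serves Hspa8 and Hspa1a, had 3.95 and 3.82 RPKM in band TRAP against 7.64 and 7.07 RPKM in band input. In sham hearts it had 3.64 and 3.41 RPKM in TRAP against 6.34 and 7.23 RPKM in input. Fractions were far apart in both kinds of heart, and the gene fell by 0.77 ± 0.09 after banding and by 0.78 ± 0.09 after sham surgery (log2, limma adjusted p = 0.00124 and 0.00153).

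Hsph1, an HSP110 exchange factor, had 1.93 and 2.04 RPKM in band TRAP against 3.61 and 3.22 RPKM in band input, and 2.49 and 2.71 RPKM in sham TRAP against 4.92 and 4.09 RPKM in sham input. No TRAP library reached the lowest input library. Its log2 fold change was -0.57 ± 0.11 after banding and -0.61 ± 0.11 after sham surgery (limma adjusted p = 0.00615 and 0.00536).

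Hsp90ab1 had 384 and 365 RPKM in band TRAP against 533 and 521 RPKM in band input, and 460 and 467 RPKM in sham TRAP against 589 and 573 RPKM in sham input. As the most abundant of these genes in input it fell by 0.49 ± 0.07 and by 0.33 ± 0.07 (limma adjusted p = 0.00257 and 0.0131). Hspa12b, an HSP70 relative known from endothelium, had -0.56 ± 0.10 after banding and -0.50 ± 0.10 after sham surgery. Summed endothelial markers were 1703 and 867 RPKM in band TRAP against 1073 and 940 RPKM in band input. In sham hearts they were 993 and 991 RPKM in TRAP against 884 and 958 RPKM in input. Fabp4 made up most of these sums, with 1603 and 785 RPKM in band TRAP and 879 and 876 RPKM in sham TRAP. Single markers went both ways after banding. Pecam1 had 18.9 and 16.4 RPKM in TRAP against 15.8 and 13.4 RPKM in input. Egfl7 had 18.6 and 20.9 RPKM in TRAP against 35.8 and 37.7 RPKM in input. The part of endothelial RNA in the result was not tested.

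Also lower in both were Dnajb14, a membrane protein of the endoplasmic reticulum (-0.75 ± 0.11 and -0.81 ± 0.11), Dnajc13 of endosomes (-0.51 ± 0.09 and -0.52 ± 0.09) and Hspa4, an HSP110 protein (-0.54 ± 0.09 and -0.50 ± 0.09). Dnajc7, which binds both HSP70 and HSP90, had -0.66 ± 0.12 and -0.47 ± 0.12, and Dnajb6, which holds back protein aggregation, had -0.54 ± 0.08 and -0.37 ± 0.08. Of 17 genes called lower after banding and 18 after sham surgery, 15 were shared (88.2% and 83.3% of each). Dnajc2, a ribosome-bound J-domain protein, and Hspa8 were called after banding and not after sham surgery, and Dnajb12, Dnajc1 and Dnajc27 the other way round. No such difference between the operations passed the interaction test given further on.

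By family, 1 of 13 tested HSP70 and HSP110 genes was higher and 6 lower after banding, and 1 higher and 5 lower after sham surgery. Of 3 HSP90 genes, 1 was lower after each operation and 0 were higher. Among 8 TRiC subunits, 0 were higher and 1 was lower, Cct7, at -0.24 ± 0.07 after banding and -0.32 ± 0.07 after sham surgery. The 24 class C genes had 5 higher and 6 lower after banding, and 4 higher and 7 lower after sham surgery, and of the 9 class B genes 2 were higher and 3 lower, and 1 higher and 4 lower. The 4 class A genes had 2 higher and 0 lower after each. Over all genes tested, 16.6% were higher and 26% lower after banding, and 15.1% and 24.5% after sham surgery, and nothing particular to a family is read from these small counts.

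The genes called higher had shorter transcripts, with a median length of 1865 bases after banding and 1394 bases after sham surgery, than those called lower, with 3158 and 3241.5 bases. With a trend on length removed, 11 genes were higher and 16 lower after banding, and 7 higher and 9 lower after sham surgery. When each of the 4 libraries of a comparison was left out in turn, 20 of the 28 calls after banding and 7 of the 27 after sham surgery stood every time. Another alternative left the mitochondrially encoded, haemoglobin and 50 most abundant genes out of the library totals. The split was then 11 higher and 26 lower after banding, and 5 higher and 23 lower after sham surgery. The 7 kept after sham surgery, with each library left out in turn, were Dnajc19, Dnajc30, Dnajb1, Dnajb14, Dnajc13, Hspa4 and Hsph1. With the trend on length removed, the calls lost after banding included Dnajb9, Dnajc5, Dnajc13 and Dnajc24. Those lost after sham surgery included Dnajb2, Dnajb14, Dnajc1, Dnajc5, Dnajc13, Dnajc15, Dnajc21, Dnajc24, Dnajc27, Hspa1a and Hspe1. Dnajc5, Dnajc13 and Dnajc24 thus lost their calls after both operations.

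**Figure D2:**
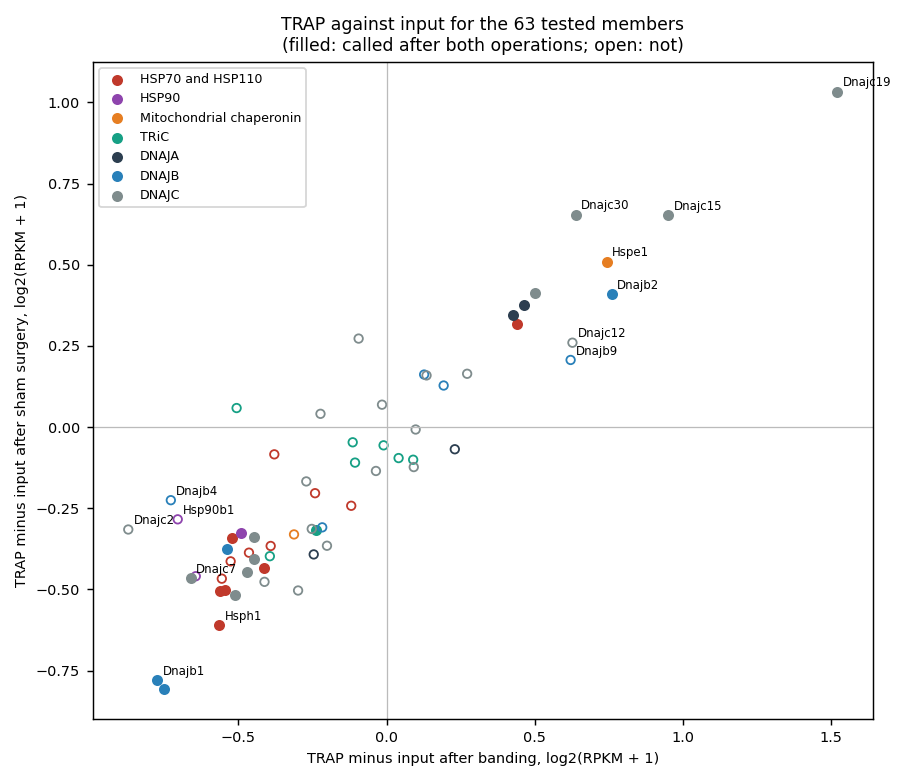
Log2 difference of RPKM + 1 between TRAP and input for the 63 tested genes, after banding (x axis) and after sham surgery (y axis), coloured by family; filled points were called after both operations. Dnajc19 lies farthest to the upper right, at 1.52 and 1.03, and Dnajb1 lies near -0.77 and -0.78 at the lower left.

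Among 70 tested genes of the wider folding machinery, from 72 listed co-chaperones and folding factors, 15 were higher and 16 lower in TRAP after banding, and 19 were higher and 15 lower after sham surgery, beside the same shares of all genes (16.6% and 26%, 15.1% and 24.5%). Stub1, the ubiquitin ligase that acts on HSP70 clients, was higher by 0.97 after banding and 0.89 after sham surgery (limma adjusted p = 0.000560 and 0.000969). Grpel1, the nucleotide exchange factor of mitochondrial HSP70, was higher by 0.70 and 0.75. Stip1, which passes clients from HSP70 to HSP90, was lower, at -0.61 and -0.85, as were the myosin folding factors Smyd1, at -0.59 and -0.76, and Unc45b, at -0.42 and -0.67.

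Banding was set against sham surgery to ask which chaperone genes respond to pressure load. In input RNA, Hspa1a and Hspa1l rose, and no other of the 63 genes passed the test in either direction. The 2 calls make up 3.17% of the 63 genes, against 2.44% of all genes called higher, and 0 were lower, against 1.65% of all genes. At an unadjusted limma p under 0.05, 8 of the 63 genes were higher and 5 lower, together 20.6% against 19.3% of all genes, and limma voom on read counts recovered from the RPKM values called 1 higher and 0 lower. After quantile normalization 2 were higher and 1, Dnajb2, was lower. In TRAP RNA, Hspa1a, Hspa1b and Dnajc19 rose, 3 of 63 (4.76%, against 2.21% of all genes), and 0 fell, against 1.56%. There 8 genes were higher and 5 lower at an unadjusted p under 0.05, together 20.6% against 19.7% of all genes, and voom called 3 higher and 0 lower. Hspa1a and Hspa1b reached 1 RPKM only in banded libraries, 3 for Hspa1a and 2 for Hspa1b, and entered the tests through them. The counts and percentages that hold them, and their adjusted p-values under this filter, are therefore no support for a rise.

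Hspa1a had 1.85 and 1.62 RPKM in band input against 0.699 and 0.724 RPKM in sham input. In TRAP it had 0.802 and 1.01 RPKM after banding against 0.347 and 0.351 RPKM after sham surgery. Banded libraries lay above sham libraries in both fractions, and the values rest on 155 and 171 reads in band input, 100 and 70 in sham input, 89 and 140 in band TRAP, and 36 and 43 in sham TRAP. Its log2 fold change was 0.67 ± 0.10 in input (limma adjusted p = 0.0181) and 0.49 ± 0.10 in TRAP (0.0477). At such low levels the added 1 RPKM shrinks the change: with 0.1 RPKM added, Hspa1a rose by 1.17 in input (limma adjusted p = 0.0405) and by 1.15 in TRAP (0.0399). With no filter on low values the input call stood (limma adjusted p = 0.0318) and the TRAP call was lost (0.0786). The TRAP call was lost too after quantile normalization (0.0679), without the abundant genes (0.0502) and with the replicate block (0.0888).

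Hspa1b, which can share reads with Hspa1a, had 0.884 and 1.04 RPKM in band TRAP against 0.302 and 0.384 RPKM in sham TRAP. In input it had 0.997 and 1.27 RPKM after banding against 0.650 and 0.529 RPKM after sham surgery. The groups did not overlap in either fraction. It rose by 0.55 ± 0.11 in TRAP (limma adjusted p = 0.0469), while its difference of 0.42 ± 0.11 in input did not pass the test (0.0919). The TRAP call was lost with no filter (limma adjusted p = 0.0911), after quantile normalization (0.0696), without the abundant genes (0.0568) and with the replicate block (0.0769). The sources used here do not say how reads were split between Hspa1a and Hspa1b, so their separate values are uncertain.

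Hspa1l had 4.20 and 2.89 RPKM in band input against 1.76 and 1.81 RPKM in sham input, and 2.60 and 2.26 RPKM in band TRAP against 1.12 and 1.20 RPKM in sham TRAP. Banding gave the higher values in both fractions, with a wide gap between the band input libraries. The log2 fold change was 0.69 ± 0.14 in input (limma adjusted p = 0.0492) and 0.67 ± 0.14 in TRAP (0.0562), the second not called. The input call was lost with 0.1 RPKM added (log2 fold change 0.93, limma adjusted p = 0.0613), with no filter (0.117), with the replicate block (0.0723) and with voom (0.0562). Because the libraries do not mark strand, reads of Hspa1l and of any transcript overlapping it on the other strand cannot be told apart.

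Leaving out 1 library ended most of these calls. Without any 1 of the 4 input libraries, the adjusted p was 0.0771 to 0.152 for Hspa1a and 0.0593 to 0.275 for Hspa1l, with log2 fold changes of 0.61 to 0.74 and 0.48 to 0.90. In TRAP, without sham library 1 or 2, it was 0.251 and 0.255 for Hspa1a, 0.266 and 0.218 for Hspa1b, and 0.225 and 0.255 for Dnajc19, and without band TRAP library 2 it was 0.0532 for Hspa1a.

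Hspa8, the constitutive counterpart, moved the other way without passing the test. It had 84.1 and 88.7 RPKM in band input against 125 and 121 RPKM in sham input, and 51.6 and 69.0 RPKM in band TRAP against 97.9 and 86.8 RPKM in sham TRAP. The groups did not overlap in either fraction, with log2 fold changes of -0.51 ± 0.14 in input and -0.62 ± 0.14 in TRAP (limma adjusted p = 0.108 and 0.0640). Hspa1a amounted to 0.0220 and 0.0182 of Hspa8 in band input against 0.00560 and 0.00597 in sham input, per length.

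The inducible HSP90 gene Hsp90aa1 had 15.7 and 16.4 RPKM in band input against 10.4 and 8.24 RPKM in sham input, but 15.3 and 6.28 RPKM in band TRAP against 4.93 and 8.36 RPKM in sham TRAP. Only the input groups were apart, and neither difference passed the test (limma adjusted p = 0.347 and 0.486). Summed macrophage and leukocyte markers were 514 and 419 RPKM in band input against 384 and 385 RPKM in sham input, and 232 and 212 RPKM in band TRAP against 215 and 220 RPKM in sham TRAP. Their part in these results was not tested, and in such bulk libraries fewer cells of a type and less RNA per cell cannot be told apart.

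**Figure D3:**
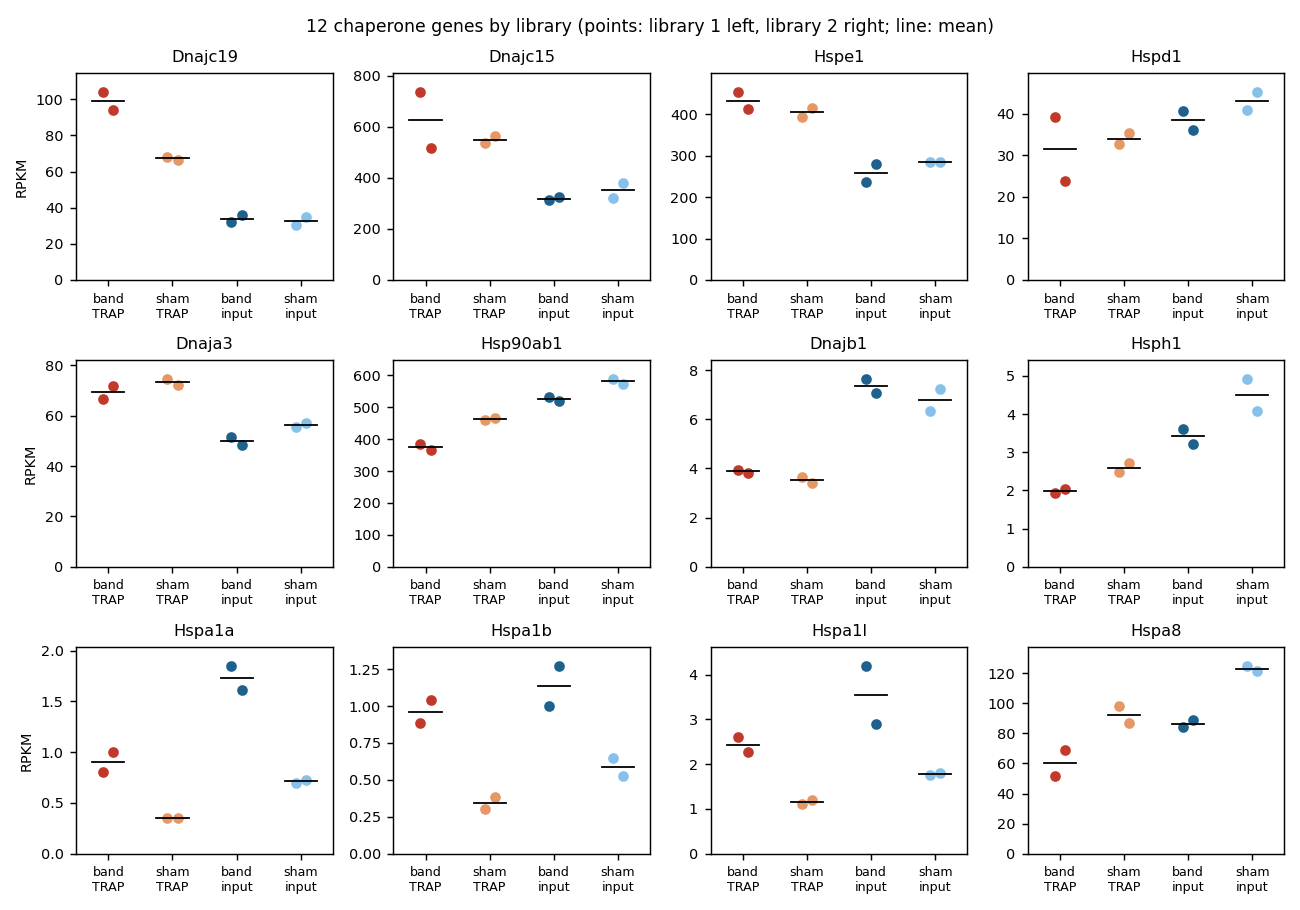
RPKM of 12 chaperone genes in the 8 libraries of operated CAG hearts; points are libraries (1 left, 2 right) and lines are means, with each axis starting at 0. Hspa1a, Hspa1b and Hspa1l are higher in band than in sham within both fractions, and Dnajc19 is at 104 and 94.1 RPKM in band TRAP, above all other libraries.

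Dnajc19 rose with banding in TRAP, by 0.55 ± 0.11 (limma adjusted p = 0.0434), and differed by 0.06 ± 0.11 in input (0.834). The TRAP call was lost with no filter (limma adjusted p = 0.107) and with the replicate block (0.0824). The test of the difference itself, a term for banding acting on the TRAP to input ratio, gave 0.49 ± 0.15 with an unadjusted p of 0.0148 and an adjusted p of 0.901. For this interaction, limma called 0 of the 63 genes and 0% of all genes. At an unadjusted p under 0.05 it held 2 of the 63 genes (3.17%, against 4.78% of all genes), Dnajc19 and Dnajc4 (-0.37 ± 0.15), and voom called 0.

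Of the 70 other folding genes, 5 rose and 2 fell with banding in input, where 2.44% of all genes rose and 1.65% fell, and 4 rose and 0 fell in TRAP, where 2.21% rose and 1.56% fell. Hspb1, a small heat shock protein that binds unfolded clients, had 541 and 564 RPKM in band input against 200.2 and 217 RPKM in sham input, and 466 and 562 RPKM in band TRAP against 214 and 207 RPKM in sham TRAP. Banding placed it above sham in both fractions, by 1.401 in input and 1.278 in TRAP (log2, limma adjusted p = 0.00188 and 0.00272). Its relatives Hspb7 (0.70 and 0.65) and Cryab (0.45 and 0.56) also rose in both, and 4 of 7 small heat shock genes rose in input and 3 of 7 in TRAP. Manf, a secreted protein of the endoplasmic reticulum stress response, rose by 0.53 in TRAP and was 0.29 higher in input, which did not pass the test. The difference between the fractions was 0.23 ± 0.15 (limma adjusted p = 0.992). Herpud1, a degradation factor of the endoplasmic reticulum, and Fkbp4, an HSP90 partner, fell in input, by 0.53 and by 0.44.

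The difference between the 2 band TRAP libraries bore on many of these genes. Library 2 was lower than library 1 by more than 0.5 (log2) for 16 of the 63 genes (25.4%, against 13.1% of all genes tested), and 0 were that much higher. The other pairs held 2 gaps of this size in either direction, both in sham TRAP, where library 1 was the lower for Hsp90aa1 and Dnajb4, and 0 in the input pairs. The 16 were Cct4, Cct6a, Cct8, Tcp1, Dnaja1, Dnajb4, Dnajc2, Dnajc3, Dnajc9, Dnajc15, Dnajc28, Hsp90aa1, Hsp90b1, Hspa5, Hspa9 and Hspd1.

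Dnajb4, a cytosolic class B protein, had 15.5 RPKM in band TRAP library 1 and 3.77 RPKM in library 2. Endoplasmic reticulum Hspa5 had 65.6 and 33.8 RPKM and Hsp90b1 had 39.5 and 17.3 RPKM, in the same order of libraries. Mitochondrial Hspa9 had 73.7 and 40.9 RPKM, and the TRiC subunit Cct4 had 19.4 and 9.34 RPKM. Beside these values, summed endothelial markers were 1703 RPKM in library 1 and 867 RPKM in library 2. Fibroblast markers had 143 and 88.8 RPKM, and cardiomyocyte markers 56049 and 56696 RPKM. Single markers within a sum differed. Of the endothelial markers, Fabp4 had 1603 and 785 RPKM and Egfl7 18.6 and 20.9 RPKM. Of the cardiomyocyte markers, Pln had 1675 and 811 RPKM, Ryr2 8.19 and 4.05 RPKM, and Tnnt2 20287 and 23378 RPKM. The part of these cell types in the gap was not tested.

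Which band TRAP library was kept set the direction of several genes. Without library 2, 17 of the 63 genes were called higher in band TRAP than in sham TRAP (9.34% of all genes were), among them Hsp90aa1, Hsp90b1, Hspa5, Dnajb4 and Tcp1, and 3 lower (7.57%). Without library 1, 3 were higher (4.92% of all genes) and 10 lower (9.34%), among them Hsp90b1, Dnajb4, Hspa9, Hspd1 and Cct4. Other genes kept their direction. Over the 4 fits of band against sham TRAP with 1 library left out, Dnajc19 had log2 fold changes of 0.48 to 0.62. Hspa8 had -0.83 to -0.41 and Hsp90ab1 -0.34 to -0.27, and neither was called with all libraries. Hspa1b had 0.49 to 0.61, but it entered the tests through banded libraries only, so this is no support for a rise. Against band input, 16 of the 63 genes were lower in TRAP without library 2 (25.4% of all genes were) and 33 without library 1 (34.5%), and 15 (21.4%) and 11 (19.3%) were higher. For the interaction, 4 genes (Cct4, Dnajb4, Dnajc2 and Hsp90b1) were lower without library 1 (1.60% of all genes were) and 0 without library 2 (0.515%). A lone library is taken in these fits to vary as the other groups do.

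**Figure D4:**
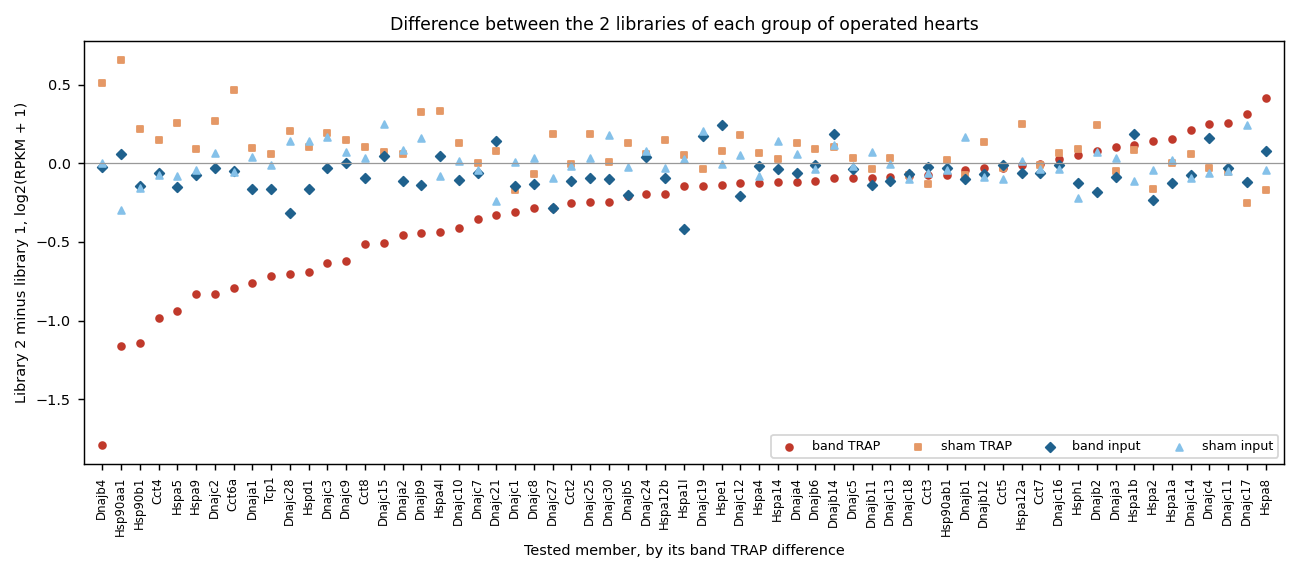
Library 2 minus library 1, in log2(RPKM + 1), for each of the 63 tested genes in the 4 groups of operated CAG hearts, ordered by the band TRAP difference. The band TRAP points reach past -0.5 for 16 genes at the left, and 2 sham TRAP points, Hsp90aa1 and Dnajb4, lie past 0.5 on the other side of 0.

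The unoperated CAG hearts, with 1 library of each fraction and hence no test, were described by size alone. TRAP was past 2-fold above input, on the log2(RPKM + 1) scale, for 1 of the 63 genes (1.59%, against 0.961% of all genes) and past 2-fold below for 7 (11.1%, against 7.53%). Dnajc4 had 160 RPKM in TRAP against 78.5 RPKM in input. Lower were Hsp90aa1, with 2.68 RPKM in TRAP against 12.02 RPKM in input, Dnajb4 with 2.82 against 10.9 RPKM, and Hspa9 with 29.8 against 73.0 RPKM. Hspa5, Dnajb1, Dnaja1 and Dnaja2 made up the rest, each just past 2-fold. Of the 16 genes lower in band TRAP library 2 than in library 1, 15 were lower in unoperated CAG TRAP than in its input (median log2 difference -0.92). Of the other 47 genes, 39 were lower there (median -0.39). Over all genes, 3673 of 11654 were higher in this TRAP library than in its input, with a median of -0.26. The 16 genes were picked by their band TRAP values, and no link between the 2 patterns is read from these counts.

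In Tie2 mice the Cre line is labelled for endothelial cells, but Tie2 TRAP also held more RNA of macrophage and leukocyte markers, 2680 RPKM in sum against 335 RPKM in Tie2 input, and of fibroblast markers, 644 against 260 RPKM. Their part in the values that follow was not tested. The Tie2 TRAP library, set against Tie2 input, showed 7 of the 63 genes past 2-fold higher (11.1%, against 31.5% of all genes) and 9 past 2-fold lower (14.3%, against 13.1%). The median log2 difference was -0.09 over the 63 genes and 0.48 over all genes. Hspa12b had 53.3 RPKM in Tie2 TRAP against 10.99 RPKM in Tie2 input, on 7041 and 1885 reads. Dnajc14, a membrane protein of the endoplasmic reticulum, had 25.8 RPKM in Tie2 TRAP against 4.77 RPKM in Tie2 input, and Dnajc10, a disulfide reductase there, had 14.5 against 3.76 RPKM. Among the stress-related cytosolic genes, Dnaja1 had 15.5 RPKM in Tie2 TRAP against 5.76 RPKM in Tie2 input and Dnajb1 had 23.2 against 9.23 RPKM.

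Lower in Tie2 TRAP were 9 genes, in a library where summed cardiomyocyte markers had 3355 RPKM against 66287 RPKM in Tie2 input, and the part of this in the values was not tested. Dnajc15 had 76.6 RPKM in Tie2 TRAP against 455 RPKM in Tie2 input, Hspa9 had 14.9 against 67.9 RPKM, and Hspd1 had 11.2 against 31.0 RPKM. Dnaja3 had 20.5 RPKM in Tie2 TRAP against 51.8 RPKM in Tie2 input. Beyond these, Dnajc4 had 41.7 RPKM in Tie2 TRAP against 107 RPKM in Tie2 input and Dnajc28 had 0.621 against 3.601 RPKM.

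Between the 2 unoperated TRAP libraries, 15 of the 63 genes were past 2-fold higher in Tie2 TRAP than in CAG TRAP (23.8%, against 44.4% of all genes) and 6 past 2-fold lower (9.52%, against 11.3%). All 8 tested TRiC subunits were higher in Tie2 TRAP, as were 8551 of all 11654 genes tested. The median log2 difference was 1.02 for these subunits, against 0.85 over all genes. Cct4 had 31.7 RPKM in Tie2 TRAP against 10.1 RPKM in CAG TRAP, and Cct5 had 113 against 52.2 RPKM. Hspa12b had 53.3 against 4.50 RPKM, and Dnajc3, an inhibitor of a stress kinase in the endoplasmic reticulum, had 10.9 against 2.17 RPKM. Hspe1 had 188 RPKM in Tie2 TRAP against 628 RPKM in CAG TRAP, and Dnajc19 had 29.5 against 78.5 RPKM.

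**Figure D5:**
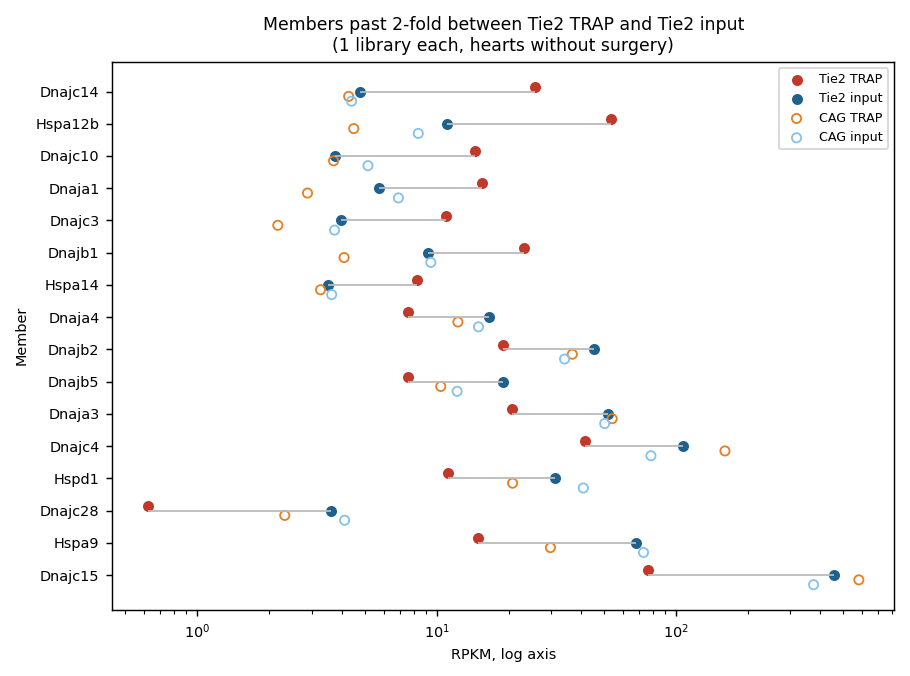
RPKM (log axis) of the 16 genes past 2-fold between Tie2 TRAP and Tie2 input, 1 library each; grey lines join the 2 values and open points give CAG TRAP and CAG input without surgery. Hspa12b and Dnajc14 lie highest above input in Tie2 TRAP, and Dnajc15 lies farthest below, at 76.6 against 455 RPKM.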

How the data were processed

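RPKM values for 34306 genes, each with 1 transcript and its length, were deposited by the authors; the submitters' processing notes name CASAVA 1.8.2, TopHat 1.4, HTSeq 0.5.3 and the build NCBIM37, without settings. The 12 columns were taken as the libraries of the later deposit (24 of 53 samples), whose titles end in l1 or l2; the sources used here do not say how these became 1 column each, and 0 columns belonged to no sample. The first deposit was not analysed here. RPKM multiplied by length gave whole reads, within 0.02 reads, for all 185868 values under 1000 reads.

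Genes with at least 1 RPKM in at least 2 libraries were kept. One limma fit (limma 3.58.1, R 4.3.3, with a mean-variance trend) on log2(RPKM + 1), with a mean for each group, covered the 12 libraries, with 4 residual degrees of freedom. All groups share 1 spread per gene, so a wide gap between the libraries of 1 group widens the SE of every comparison. A fold change on this scale understates changes of low genes. Values with ± are RPKM means with SD or log2 fold changes with SE. Single libraries were compared by the log2 difference, with no test. The fit was tested on simulated data.

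Alternatives were a pseudocount of 0.1 RPKM, a filter at 5 RPKM or none, the 8 operated libraries alone and quantile normalization. Others were a total without the abundant genes, removal of a trend on length, the replicate number as a block, and each library left out. The abundant genes left out were all mitochondrially encoded and haemoglobin genes together with the 50 most abundant genes. Members and lists were chosen with earlier results of these data known. Named were genes at 50 RPKM or more on average, up to 12 called higher and 12 lower in a tested comparison, up to 6 each way between single libraries, and up to 3 each way among the other folding genes; the genes described for band TRAP library 2, and Hspd1 and Hsp90aa1, were added after their values were seen.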

Additional observations from a re-analysis of the deposited data

How the results depend on the processing

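No gene called with all libraries changed its sign under an alternative that was run. Dnajb4 and Hsp90b1, not called in band against sham TRAP with all libraries, were called lower without band TRAP library 1 and higher without library 2. In band against sham input, the main count was 2 higher and 0 lower: 1 gene was higher with a pseudocount of 0.1 RPKM, without a filter, with voom and with the replicate block, 0 with a filter at 5 RPKM, and 1 was lower after quantile normalization. In band against sham TRAP, with 3 higher and 0 lower, 1 was higher with a filter at 5 RPKM or without the abundant genes, 0 without a filter and 0 with the replicate block, and 1 was lower with a filter at 5 RPKM. In TRAP against input, the lower genes numbered 11 in each kind of heart with a filter at 5 RPKM, which tests fewer genes, 9 in sham hearts with the length trend removed and 26 in banded hearts without the abundant genes, when 5 were higher in sham hearts. Between the unoperated CAG libraries, 8 genes were past 2-fold, 16 with a pseudocount of 0.1 and 3 after quantile normalization. The cause was not tested where none is named.

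With 1 library left out, the genes called in TRAP against input numbered 9 to 15 higher and 11 to 33 lower after banding, and 2 to 4 higher and 5 to 8 lower after sham surgery. In band against sham they numbered 0 higher and 0 lower in input, and 0 to 17 higher and 0 to 10 lower in TRAP, and for the interaction 0 higher and 0 to 4 lower. The median of all genes in TRAP against input was -0.10 after banding and -0.09 after sham surgery, and became -0.21 and -0.19 without the abundant genes and 0.05 in both after quantile normalization. The deviations of same-numbered libraries had correlations of -0.43 to 0.11, so the numbers were not taken as pairs. The -0.43 was between sham TRAP and band TRAP, whose libraries thus deviated together in part with the numbers crossed. With the replicate block, 11 genes were higher and 16 lower after banding, 8 and 16 after sham surgery. With the sham TRAP numbers crossed, an alternative chosen after seeing the data, 9 were higher and 19 lower in sham TRAP against input, and 0 higher in band against sham TRAP. The planned count models were not run, since the deposited unit is RPKM; voom on recovered reads, also chosen after seeing the data, took their place. Hspa1a rests on 36 to 171 reads per operated library, which limits the precision of its values.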

Other observations

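Unoperated CAG input is a single library, so its values stand beside those of the operated hearts without a test. Its Hspe1 level of 420 RPKM lay above the 237 to 284 RPKM of the 4 operated input libraries, and its Hsp90ab1 level of 471 RPKM lay below their 521 to 589 RPKM. Hsph1 had 5.94 RPKM there, against 3.22 to 4.92 RPKM in the operated input libraries. The same library held 14.5 RPKM of summed adipocyte markers, against 0.433 to 1.18 RPKM in the operated input libraries, and 2808 RPKM of Nppa, and their part in these values was not tested.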
